A study of Homo sapiens with 6 samples.

Results

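The enzymes that build purine, pyrimidine and deoxyribonucleotides were described in HCC2814 cells, a human lung squamous cell carcinoma (LUSC) line, with and without a guide against MLST8. The 33 enzymes were chosen by name for their role in nucleotide synthesis, a pathway placed downstream of mTORC1 through CAD, ATF4 and MYC, and all 33 were among the 17448 genes listed. WT cells carried a non-targeting control guide (3 libraries) and MLST8-KO cells a guide against MLST8 (3 libraries). By the labels both groups received their guide for 48 to 72 hours and were then selected with antibiotic. The study's methods describe the timing of infection differently. The replicates came from independent experiments. The cells were selected pools rather than stated clones, so that a group may hold cells that the guide did not edit, and whether the 3 replicates carried the same guide sequence is not stated.

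Cells assemble purines stepwise on phosphoribosyl pyrophosphate (PRPP) until IMP is reached, which is then turned into AMP or GMP. Pyrimidines are built as a ring first, joined to PRPP to give UMP, and aminated to CTP. Ribonucleotide reductase removes the ribose oxygen to give deoxyribonucleotides, thymidylate synthase makes the nucleotide found only in DNA, and salvage enzymes recover bases and nucleosides that are already formed. MLST8 is a subunit of both mTOR complexes, and its loss was used to target mTORC2. In HCC2814 cells the study reported that this loss broke the binding of mTOR to RICTOR, of mTORC2, but not to RAPTOR, of mTORC1. It also reported unchanged phosphorylation of an mTORC1 substrate. mTORC1 is known to act on this pathway through phosphorylation of CAD and through ATF4 and MYC, and many deoxyribonucleotide genes are known to be expressed with S phase.

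The promoters of 4 enzymes whose transcripts were higher in MLST8-KO cells are shown because each held CCAAT, the letters bound by NF-Y, close to its start. They are RefSeq windows on GRCh38.p14, from 250 bases before to 50 bases after a start site, read 5′ to 3′ on the strand of the gene. RRM2 lies at chr2:10122489-10122788 on the plus strand, RRM1 at chr11:4094435-4094734 on the plus strand, TK1 at chr17:78187003-78187302 on the minus strand and SAMHD1 at chr20:36951659-36951958 on the minus strand. RRM2 and TK1 each have another listed window, and for both the window with more CCAAT matches is shown. The other TK1 window held no CCAAT, and the other RRM2 window held it only at its far upstream end. The clusters near the start thus describe the windows shown, not every listed start site of these genes. Capitals mark CCAAT or its reverse complement ATTGG.
RRM2: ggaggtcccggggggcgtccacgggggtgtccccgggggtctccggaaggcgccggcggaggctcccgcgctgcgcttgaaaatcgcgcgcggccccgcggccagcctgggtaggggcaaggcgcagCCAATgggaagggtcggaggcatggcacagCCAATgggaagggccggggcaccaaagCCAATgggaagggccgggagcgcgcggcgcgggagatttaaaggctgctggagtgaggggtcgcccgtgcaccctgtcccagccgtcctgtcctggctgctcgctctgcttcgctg
RRM1: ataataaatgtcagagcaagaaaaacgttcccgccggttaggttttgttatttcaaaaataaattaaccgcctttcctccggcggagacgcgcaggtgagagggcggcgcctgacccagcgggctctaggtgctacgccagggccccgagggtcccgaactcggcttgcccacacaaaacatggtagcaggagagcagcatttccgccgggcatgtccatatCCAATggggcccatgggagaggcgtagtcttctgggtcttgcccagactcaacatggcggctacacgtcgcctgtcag
TK1: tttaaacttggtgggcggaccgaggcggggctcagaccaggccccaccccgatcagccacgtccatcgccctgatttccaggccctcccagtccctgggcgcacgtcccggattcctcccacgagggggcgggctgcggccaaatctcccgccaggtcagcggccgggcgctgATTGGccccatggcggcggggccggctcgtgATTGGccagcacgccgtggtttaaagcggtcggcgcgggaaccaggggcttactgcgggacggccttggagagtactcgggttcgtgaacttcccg
SAMHD1: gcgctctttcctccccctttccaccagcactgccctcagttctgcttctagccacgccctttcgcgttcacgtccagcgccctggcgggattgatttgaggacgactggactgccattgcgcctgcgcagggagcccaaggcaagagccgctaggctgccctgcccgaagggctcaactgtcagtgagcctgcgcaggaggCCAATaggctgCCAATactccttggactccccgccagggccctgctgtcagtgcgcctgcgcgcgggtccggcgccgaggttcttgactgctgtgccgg
In the windows shown, the matches began at positions -123, -93 and -66 in RRM2 and at -28 in RRM1. Those in TK1 began at -77 and -46 and those in SAMHD1 at -49 and -38. Positions are counted from the start site of the window. A window of TYMS, the other higher deoxyribonucleotide gene, held no match to any of the 4 motifs searched.

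Windows were listed for 31 of the 33 enzymes, all but ADSL and IMPDH2. CCAAT, on either strand, was in 12 of the 31, against 34.6% of all 35116 windows and 39.7% of the 27305 genes with a window. By call, 6 of 9 enzymes that were higher held it (CAD, TK1, RRM1, RRM2, SAMHD1 and MTHFD1), as did 6 of 22 that did not pass the test. This split follows the calls of the same data, and CAD and MTHFD1 lost theirs when certain single libraries were left out. The share among all higher genes was not counted, and the difference by call was not tested. The E-box CACGTG, read by MYC and related factors, was in 8 of 31 enzymes and in 8.77% of all genes. The E2F letters TTTCGCGC or TTTGGCGC were in 3 of 31 (DCK, DUT and GART) and in 1.40% of all genes. The ATF4-type letters TGATGNAA were in 0 of 31 and in 4.46% of all genes. Both strands were searched, the motifs were counted separately, and a gene with several windows counted once. A match describes these letters in these windows and says nothing of binding.

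PPAT and PAICS, which code for early and middle steps of purine synthesis, face away from each other on chromosome 4 with start sites 137 bases apart, so their windows share 236 bases. The PAICS window that holds an E-box, chr4:56435502-56435801 on the plus strand of GRCh38.p14, is shown. The 1 E-box, in capitals, lies in this window and in that of PPAT.
PAICS: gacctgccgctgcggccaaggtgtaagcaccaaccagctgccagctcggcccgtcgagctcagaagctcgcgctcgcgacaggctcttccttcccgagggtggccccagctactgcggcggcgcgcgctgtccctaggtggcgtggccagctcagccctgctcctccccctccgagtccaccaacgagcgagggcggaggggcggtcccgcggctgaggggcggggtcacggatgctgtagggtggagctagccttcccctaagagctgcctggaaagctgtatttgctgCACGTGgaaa
The E-box began at position 41 after the PAICS start and at -182 in the window of PPAT. The transcripts of this pair are given with the purine enzymes.

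Estimated counts summed to between 14381673 and 15744154 per library, and every enzyme had at least 106 of them in every library, so that none was near the limit of detection. No pair of replicates agreed within sampling noise (chi-square per gene 6.98 to 26.5). Levels are given in TPM, which is scaled by transcript length. MLST8 itself was at 63.5, 61.4 and 62.9 TPM in the WT libraries, in the order of their replicate numbers, and at 30.0, 47.3 and 28.0 TPM in the MLST8-KO libraries, a log2 fold change of -0.96 (SE 0.15, adjusted p = 0.00339, edgeR), so transcript remained in the MLST8-KO libraries. The 8 markers of squamous epithelium were present and all higher in MLST8-KO cells, with summed levels of 9823 to 15096 TPM in WT and 18865 to 20974 in MLST8-KO. NKX2-1, a lung adenocarcinoma marker, was at 1.38 to 3.29 TPM in WT and 7.53 to 9.63 in MLST8-KO, while NAPSA was at most 0.21. PTPRC of leukocytes and CDH5 of endothelium were at or near 0, with at most 0.03 TPM in any library. In the same lists CD68 was at 45.7 to 79.6 TPM and called lower (-0.45, adjusted p = 0.0413, edgeR), a call lost without WT replicate 2 or 3 or MLST8-KO replicate 1 or 3, and PECAM1, at 0.20 to 0.68 TPM, was called lower (-1.34, adjusted p = 0.0180), a call kept only without WT replicate 1 or 3. The summed 10 liver markers were at 254 TPM in MLST8-KO replicate 1 and at 0.96 to 6.40 in the other 5 libraries.

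The enzymes were abundant, with a median WT level of 51.4 TPM against 16.6 over the 12951 genes tested. Their mean WT levels ran from 5.36 TPM for SAMHD1 to 1635 for NME2. TPM is scaled to the same total in each library, while fold changes are given on the log2 scale from edgeR with TMM scaling and compare MLST8-KO with WT. The median of all genes lay at 0.0045 on the TMM scale and at 0.10 on log2(TPM + 0.1), so TPM places MLST8-KO libraries higher than the fold changes do.

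Of the 33 enzymes, 10 were higher in MLST8-KO cells (30.3%, against 16.3% of all genes tested), 1 was lower (3.03%, against 15.7%) and 22 did not pass an adjusted p of 0.05, where 32.0% of all genes passed in either direction. Ribonucleotide reductase and thymidylate synthase were higher with 3 of 3 genes, and PRPP supply, purine base salvage and the nucleotide kinases had 0 of 8 by edgeR, a difference between steps that was not tested. Of these 8, DTYMK alone had an unadjusted p under 0.05, DESeq2 called 0 and limma on log2(TPM + 1) called DTYMK. The median log2 fold change over the 33 was 0.20, and 27 of the 33 values were above 0. In 18 enzymes every MLST8-KO library was above every WT library in CPM, the counts scaled by library size after TMM (against 24.8% of all genes), and in 4 every one was below (against 24.2%). With upper quartile scaling, which raised the share of calls in the higher direction from 51.0% to 62.0% over all genes, 15 enzymes were higher and 0 lower.

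The count depended on single libraries, as did the count over all genes. Without WT replicate 2, MLST8-KO replicate 1 or MLST8-KO replicate 2, 6 enzymes were higher and 0 lower, and without WT replicate 1 there were 14 higher and 1 lower. Over all genes the higher calls went from 2116 to 971, 979 and 1136 in that order, and to 2692 without WT replicate 1. The lower calls went from 2030 to 1044, 850, 1091 and 2651 in the same order. RRM1, RRM2, TYMS, TK1, SAMHD1 and PFAS passed whichever library was left out. In all 10 higher enzymes WT replicate 1 was the highest of the WT libraries and WT replicate 3 the lowest. Over all genes tested, called or not, WT replicate 3 was the lowest in 39.2%. The share among all genes called higher was not counted. In bulk RNA a change in the share of cells that make a transcript cannot be told apart from a change in its level per cell.

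**Figure D1:**
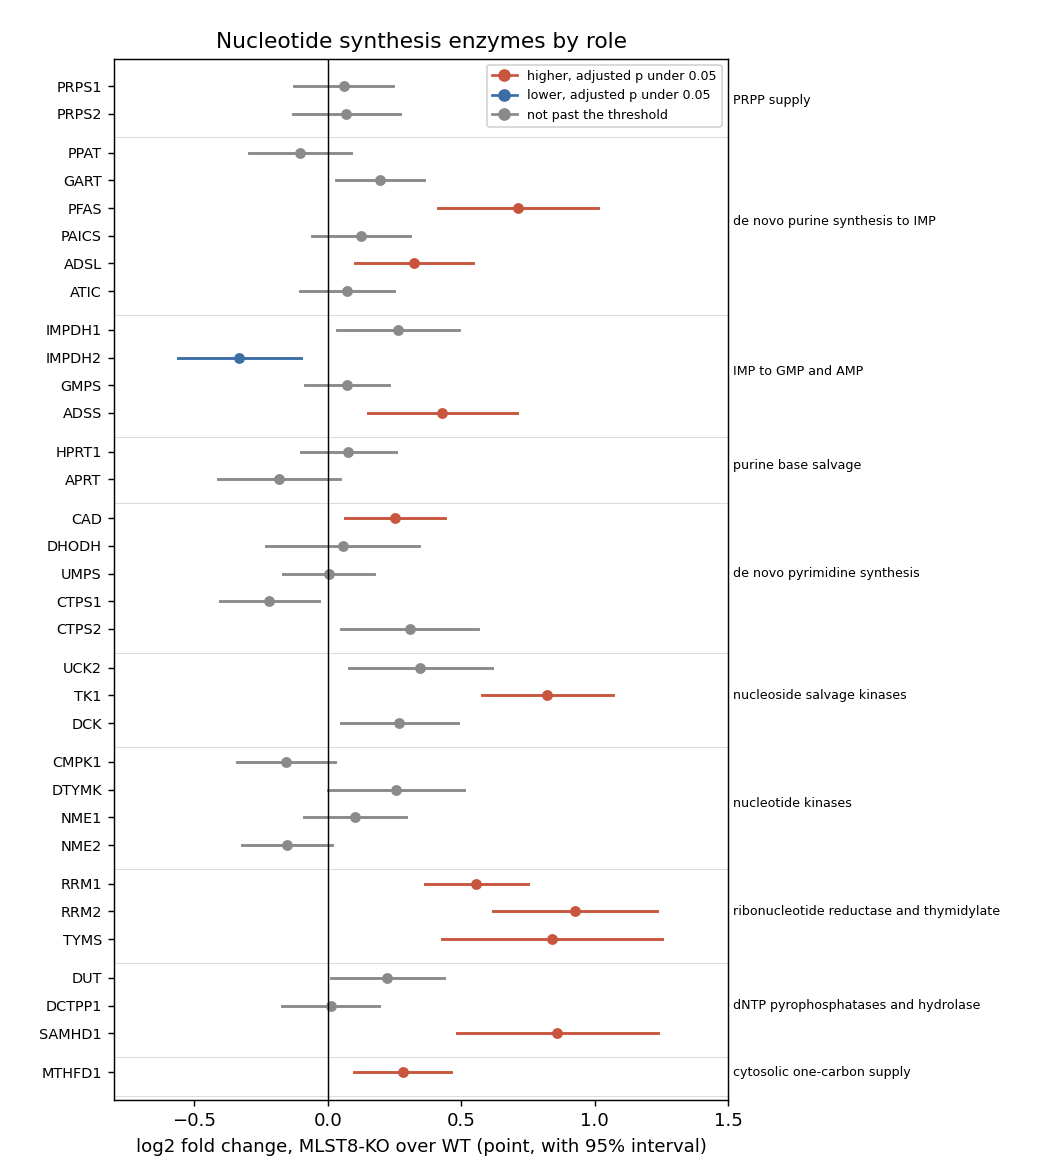
Log2 fold changes (MLST8-KO against WT, x axis) of the 33 enzymes with 95% intervals from edgeR, grouped by role, colored by call. RRM2, SAMHD1, TYMS and TK1 lie between 0.82 and 0.93, and IMPDH2, at -0.33, is the 1 enzyme past the threshold on the lower side.

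The largest rises were those of RRM2, SAMHD1, TYMS and TK1, which act on deoxyribonucleotides or their precursors, followed by PFAS of purine synthesis and then RRM1. RRM2, the small subunit of ribonucleotide reductase that is made in S phase, was at 64.4, 59.0 and 39.8 TPM in WT and at 113, 116 and 106 in MLST8-KO. The groups did not overlap, and WT replicate 3 was the lowest library. Its log2 fold change was 0.93 (SE 0.14, adjusted p = 0.00316, edgeR). RRM1, the large catalytic subunit, was at 97.0, 90.7 and 78.1 TPM in WT and at 147, 147 and 128 in MLST8-KO, again without overlap. Its rise was smaller, at 0.56 (SE 0.09, adjusted p = 0.00344). The RRM2 transcript was thus 0.665, 0.651 and 0.510 of the RRM1 transcript in WT and 0.772, 0.789 and 0.825 of it in MLST8-KO libraries.

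TYMS, thymidylate synthase, which methylates dUMP to dTMP, was at 52.0, 35.6 and 25.3 TPM in WT and at 76.3, 71.5 and 71.2 in MLST8-KO. The WT libraries spread over a wider range than the MLST8-KO libraries, and the groups stayed apart. The log2 fold change was 0.84 (SE 0.19, adjusted p = 0.00941, edgeR), and it lay between 0.64 and 1.12 when any 1 library was left out. TYMS, on chromosome 18 at 657604 to 673578 in the GENCODE annotation of GRCh38, overlaps exons of ENOSF1 on the other strand, and ENOSF1 was higher as well (0.48, adjusted p = 0.00725). The strand setting of the counting is not given in the sources used here, so reads in the overlapping stretch cannot be told apart. The same limit holds for SAMHD1 (with TLDC2), MTHFD1 (ZBTB25), GART (SON), UCK2 (TMCO1) and DCTPP1 (ZNF771). DCK overlaps exons of MOB1B on its own strand. Summed over RRM1, RRM2 and TYMS, the level was 213, 185 and 143 TPM in WT and 336, 334 and 305 in MLST8-KO libraries.

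TK1, the cytosolic thymidine kinase that salvages thymidine, was at 29.8, 26.0 and 22.6 TPM in WT and at 48.7, 48.4 and 52.6 in MLST8-KO. It had the lowest adjusted p of the 33 enzymes, with a log2 fold change of 0.82 (SE 0.11, adjusted p = 0.00281, edgeR). SAMHD1, which removes the triphosphate from dNTPs and so works against their accumulation, was at 6.78, 5.25 and 4.06 TPM in WT and at 10.9, 10.3 and 9.71 in MLST8-KO. It rose by a log2 fold change of 0.86 (SE 0.17, adjusted p = 0.00642), so an enzyme that destroys dNTPs was higher together with those that make them. DUT, which clears dUTP and supplies dUMP to TYMS, had a log2 fold change of 0.22 that did not pass (95% interval 0.01 to 0.43, adjusted p = 0.0949). DCTPP1, a pyrophosphatase for dCTP and modified forms of it, had 0.01 (-0.17 to 0.19, adjusted p = 0.929).

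The other nucleoside kinases fell short of the threshold. UCK2, which phosphorylates uridine and cytidine, was at 25.9 to 39.1 TPM in WT and 43.0 to 45.4 in MLST8-KO, with a log2 fold change of 0.35 (95% interval 0.08 to 0.62, adjusted p = 0.0509, edgeR). DCK, the kinase for deoxycytidine, was at 28.2 to 37.6 TPM in WT and 42.2 to 45.8 in MLST8-KO, with 0.27 (0.05 to 0.49, adjusted p = 0.0607). In both genes every MLST8-KO library was above every WT library. Without WT replicate 1 both passed. UCK2 also passed with DESeq2.

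**Figure D2:**
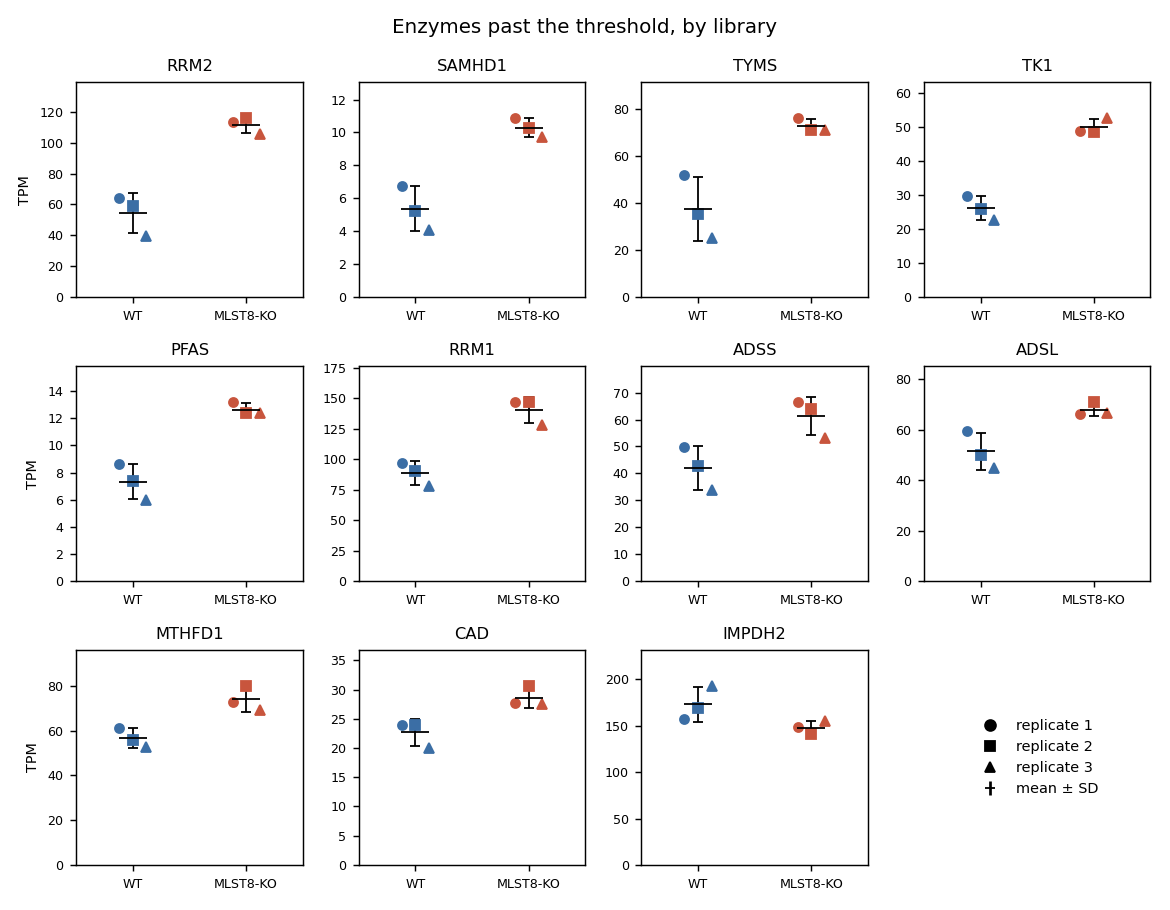
TPM of each enzyme past the test in the 3 WT and 3 MLST8-KO libraries, 1 panel per gene with its own axis from 0, with points for replicates and bars for the group mean ± SD. The groups do not overlap in any of the 11 panels, which adds no support, as the panels were chosen by the test on these same libraries. IMPDH2 alone has its MLST8-KO points below the WT points.

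Of the 6 enzymes between PRPP and IMP, PFAS and ADSL passed as higher. PFAS, the amidotransferase of the middle of the route, was at 8.62, 7.36 and 6.0 TPM in WT and at 13.2, 12.4 and 12.4 in MLST8-KO, with a log2 fold change of 0.71 (SE 0.14, adjusted p = 0.00561, edgeR). It was the least abundant of the 6 enzymes between PRPP and IMP and the one that rose most. ADSL, which acts both on the way to IMP and on the way to AMP, was at 59.4, 49.97 and 45.0 TPM in WT and at 66.3, 71.0 and 66.5 in MLST8-KO (0.32, SE 0.10, adjusted p = 0.0321). The call on ADSL was lost without any 1 library other than WT replicate 1, with log2 fold changes of 0.25 to 0.43 and adjusted p up to 0.124.

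PPAT, which commits PRPP to purines, was at 35.4, 31.6 and 30.8 TPM in WT and at 34.6, 32.6 and 29.8 in MLST8-KO, so the groups overlapped. Its log2 fold change was -0.10 (95% interval -0.30 to 0.09, adjusted p = 0.372, edgeR). PAICS, its neighbor across the shared promoter, was at 183, 187 and 154 TPM in WT and at 201, 214 and 203 in MLST8-KO, with 0.12 (-0.06 to 0.31, adjusted p = 0.266). The trifunctional GART had 0.20 (0.03 to 0.36, adjusted p = 0.0655) and ATIC, which closes the ring to IMP, had 0.07 (-0.10 to 0.25, adjusted p = 0.498). Neither passed. Every MLST8-KO library was above every WT library for GART and for PAICS. Upstream, the PRPP synthetases PRPS1 and PRPS2 had log2 fold changes of 0.06 (-0.13 to 0.25) and 0.07 (-0.13 to 0.27), with adjusted p of 0.609 and 0.579.

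At the branch after IMP, ADSS was called higher and IMPDH2 lower, while IMPDH1 and GMPS, also on the route to GMP, did not pass. ADSS, the adenylosuccinate synthase now named ADSS2, which opens the route to AMP, was at 49.9, 42.8 and 33.7 TPM in WT and at 66.5, 64.1 and 53.3 in MLST8-KO, with a log2 fold change of 0.43 (SE 0.13, adjusted p = 0.0273, edgeR). The call was lost without WT replicate 2, MLST8-KO replicate 1 or MLST8-KO replicate 2 (adjusted p up to 0.107). IMPDH2, the main IMP dehydrogenase of growing cells and the entry to GMP, was at 157, 169 and 193 TPM in WT and at 149, 141 and 155 in MLST8-KO, the only enzyme past the test in the lower direction (-0.33, SE 0.10, adjusted p = 0.0341). Its groups were close, and the call was lost without WT replicate 2 or 3, without MLST8-KO replicate 1 or 2 (adjusted p up to 0.123) and with upper quartile scaling. The difference between the ADSS and IMPDH2 fold changes was not tested. GMPS, which completes GMP, had 0.07 (95% interval -0.09 to 0.23, adjusted p = 0.466).

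IMPDH1, the other IMP dehydrogenase, was at 90.7, 74.0 and 69.1 TPM in WT and at 94.1, 103 and 105 in MLST8-KO, and its log2 fold change of 0.26 did not pass (95% interval 0.03 to 0.49, adjusted p = 0.0738, edgeR), but did without WT replicate 1. The salvage enzymes for bases did not pass either. HPRT1, for hypoxanthine and guanine, had 0.08 (-0.10 to 0.25, adjusted p = 0.481), and APRT, for adenine, had -0.18 (-0.41 to 0.05, adjusted p = 0.195). MTHFD1, the cytosolic enzyme that makes the formyl folate used by GART and ATIC, was at 61.3, 55.7 and 52.5 TPM in WT and at 72.8, 80.0 and 69.2 in MLST8-KO (0.28, SE 0.08, adjusted p = 0.0266). It lost its call without WT replicate 2 or 3 or MLST8-KO replicate 1 or 2 (adjusted p up to 0.113).

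**Figure D3:**
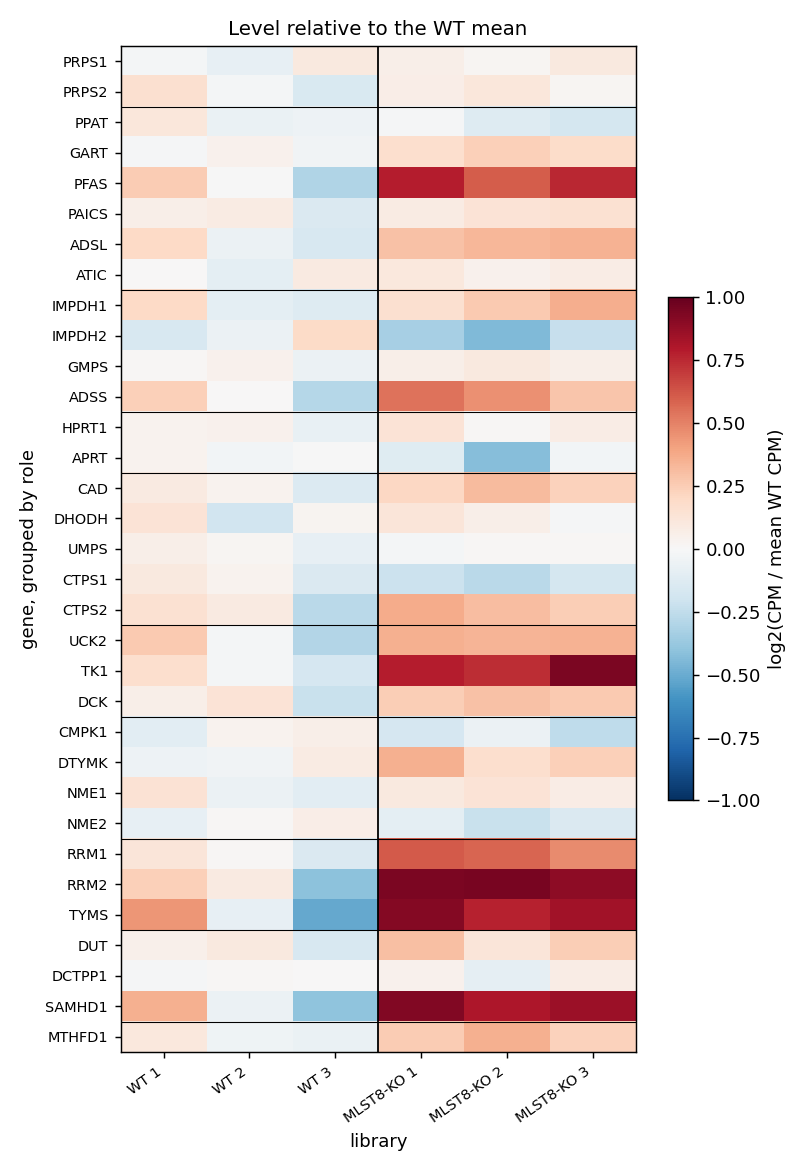
Heat map of the 33 enzymes (rows, grouped by role) in the 6 libraries (columns), each cell giving the log2 level in TMM-scaled CPM relative to the WT mean of that gene. WT replicate 3 is the lowest WT library in 23 of the 33 rows, and the 3 MLST8-KO columns are high in the rows for RRM1, RRM2 and TYMS.

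In pyrimidine synthesis CAD, which carries the opening 3 activities of the route in a single protein and is phosphorylated below mTORC1, was at 24.0, 23.9 and 20.1 TPM in WT and at 27.8, 30.7 and 27.5 in MLST8-KO. Its log2 fold change was 0.25 (SE 0.08, adjusted p = 0.0442, edgeR), close to the threshold. CAD lost its call without any 1 library other than WT replicate 1 (adjusted p up to 0.136), with no filter on low counts and with DESeq2. DHODH, the mitochondrial step, and UMPS, which yields UMP, had 0.06 (95% interval -0.23 to 0.34, adjusted p = 0.762) and 0.0036 (-0.17 to 0.17, adjusted p = 0.975), and the sign of UMPS turned with the scaling.

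The CTP synthetases had values of opposite sign, and neither passed the test. CTPS1 was at 217, 210 and 177 TPM in WT and at 183, 182 and 184 in MLST8-KO, with a log2 fold change of -0.22 (95% interval -0.40 to -0.03, adjusted p = 0.0671, edgeR). CTPS2 was at 15.7, 15.2 and 11.4 TPM in WT and at 19.7, 19.4 and 17.4 in MLST8-KO, with 0.31 (0.05 to 0.56, adjusted p = 0.0650). CTPS1 passed as lower without WT replicate 3 (-0.29, adjusted p = 0.0189), and CTPS2 passed as higher without WT replicate 1 (0.39, adjusted p = 0.0205), with upper quartile scaling and with limma on TPM.

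The kinases that raise monophosphates and diphosphates gave 0 calls among 4. CMPK1, for UMP and CMP, had a log2 fold change of -0.16 (95% interval -0.34 to 0.03, adjusted p = 0.168, edgeR), and DTYMK, for dTMP, had 0.26 (0.0014 to 0.51, adjusted p = 0.110). NME1, a nucleoside diphosphate kinase, was at 298, 252 and 237 TPM in WT and at 297, 319 and 290 in MLST8-KO (0.10, -0.09 to 0.29, adjusted p = 0.379). NME2 was at 1589, 1647 and 1670 TPM in WT and at 1621, 1558 and 1556 in MLST8-KO (-0.15, -0.32 to 0.02, adjusted p = 0.146). NME1 and NME2 are near-identical neighbors on chromosome 17 and share exons with the read-through gene NME1-NME2, so the split of reads between them is uncertain. Without this pair the summed level of the other 31 enzymes was 2198 to 2485 TPM in WT and 2665 to 2735 in MLST8-KO libraries.

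The balance within pairs of enzymes was compared as the log2 ratio of TPM + 0.1 in each library, with a two-sided exact permutation test that cannot give less than p = 0.1 with 3 against 3 libraries, adjusted over 5 ratios. RRM2 to RRM2B, the p53-inducible small subunit, was 1.59 ± 0.48 in WT and 2.74 ± 0.04 in MLST8-KO (SD, n = 3, difference 1.15, exact p = 0.1, adjusted p = 0.167). On the linear scale RRM2 was 4.02, 3.26 and 2.09 times RRM2B in WT and 6.85, 6.49 and 6.81 times in MLST8-KO. RRM2B itself had a log2 fold change of -0.19 that did not pass (adjusted p = 0.146, edgeR).

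CTPS1 to CTPS2 was 3.84 ± 0.09 in WT and 3.28 ± 0.10 in MLST8-KO (SD, n = 3, difference -0.56, exact permutation p = 0.1, adjusted p = 0.167). In every library CTPS1 was the more abundant form, at 13.8, 13.9 and 15.5 times CTPS2 in WT and 9.29, 9.39 and 10.6 times in MLST8-KO. IMPDH1 to IMPDH2 was -1.16 ± 0.35 in WT and -0.56 ± 0.10 in MLST8-KO (SD, n = 3, difference 0.60, exact permutation p = 0.1, adjusted p = 0.167). These 3 ratios did not overlap between the groups, and each p was the smallest the design allows. NME1 to NME2 (difference 0.26, exact permutation p = 0.3) and PRPS1 to PRPS2 (difference -0.01, exact permutation p = 0.9) overlapped.

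**Figure D4:**
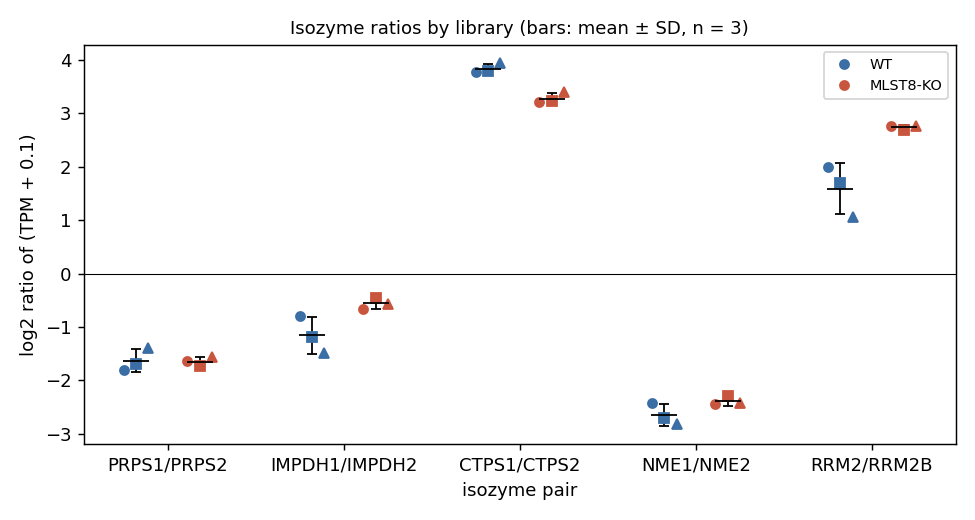
Log2 ratio of (TPM + 0.1) for 5 pairs of enzymes (x axis) in WT and MLST8-KO libraries, with circles, squares and triangles for replicates 1, 2 and 3. RRM2/RRM2B and IMPDH1/IMPDH2 lie higher and CTPS1/CTPS2 lower in all 3 MLST8-KO libraries, and PRPS1/PRPS2 and NME1/NME2 overlap.

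Around the 33 enzymes, 84 further genes of folate, serine, salvage, breakdown and nucleoside transport were listed, of which 73 were tested. Of these, 9 were higher (12.3%, against 16.3% of all genes), 16 lower (21.9%, against 15.7%) and 48 did not pass. The balance of directions turned with the scaling, to 14 higher and 13 lower with upper quartile scaling and to 16 higher and 9 lower with both limma fits on TPM. The folate and one-carbon genes had 3 higher (16.7%) and 6 lower (33.3%) among 18. SHMT1, the cytosolic serine hydroxymethyltransferase, was at 33.6, 26.6 and 22.5 TPM in WT and at 42.2, 42.6 and 39.2 in MLST8-KO (0.48, adjusted p = 0.0149, edgeR). Lower were SLC25A32, the mitochondrial folate carrier (-0.61, adjusted p = 0.00812), and SLC46A1, the proton-coupled folate transporter (-0.41, adjusted p = 0.0152). SHMT1 lost its call without WT replicate 2 or MLST8-KO replicate 1 or 2, as SLC46A1 did. PSPH, the last step of serine synthesis, was the 1 of 3 serine genes that passed (-0.36, adjusted p = 0.0144, lost without MLST8-KO replicate 1).

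Among 29 salvage genes and other isoforms, 2 were higher (6.9%, against 16.3% of all genes) and 6 lower (20.7%, against 15.7%). UPP1, uridine phosphorylase, was at 164, 225 and 300 TPM in WT and at 109, 119 and 135 in MLST8-KO, the largest fall of the list (-1.03, SE 0.20, adjusted p = 0.00562, edgeR). AK6, an adenylate kinase, was lower (-0.57, adjusted p = 0.00304), as was PNP, purine nucleoside phosphorylase (-0.39, adjusted p = 0.0245, lost without MLST8-KO replicate 1 or 2). Higher were CMPK2, a mitochondrial nucleotide kinase induced by interferon (0.96, adjusted p = 0.00481), and UCKL1, a relative of the uridine kinases (0.56, adjusted p = 0.00390). Among 19 breakdown and clean-up genes 4 were higher (21.1%) and 3 lower (15.8%), against the same shares of all genes. NUDT18 was at 0.61 to 1.01 TPM in WT and 2.72 to 3.59 in MLST8-KO (1.72, adjusted p = 0.00385), ITPA, which clears inosine triphosphates, rose (0.50, adjusted p = 0.00468), and so did TYMP, thymidine phosphorylase (0.43, adjusted p = 0.00471). XDH, the last enzyme of purine breakdown (-0.93, adjusted p = 0.0150, lost without MLST8-KO replicate 3), and NT5M, a mitochondrial deoxynucleotidase (-0.51, adjusted p = 0.0243, lost without WT replicate 3 or MLST8-KO replicate 1 or 2), were lower. The 4 nucleoside transporters tested gave 0 calls, with 2 of them, SLC29A1 and SLC29A3, at an unadjusted p under 0.05 by edgeR. DESeq2 called SLC29A1 and limma on log2(TPM + 1) called both.

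The regulators named for this pathway and the S phase genes were read in the same fit. ATF4 was at 368 to 448 TPM in WT and 369 to 392 in MLST8-KO (-0.23, adjusted p = 0.0875, edgeR), and MYC was at 169 to 188 TPM in WT and 148 to 181 in MLST8-KO (-0.24, adjusted p = 0.0918), so neither passed. ATF4 passed as lower without WT replicate 1 (-0.32, adjusted p = 0.0118) and MYC without MLST8-KO replicate 3 (-0.35, adjusted p = 0.0269). MAX, the partner of MYC and named after its values were seen, was lower (-0.51, adjusted p = 0.0109) and stayed past the threshold whichever library was left out. E2F1, a driver of S phase transcription, was at 13.4, 9.48 and 7.48 TPM in WT and at 24.5, 25.4 and 20.3 in MLST8-KO (1.10, SE 0.17, adjusted p = 0.00355). Among the 21 regulators tested 6 were higher (28.6%, against 16.3% of all genes) and 2 lower (9.52%, against 15.7%). RPTOR, which codes for RAPTOR of mTORC1, was higher (0.39, adjusted p = 0.00965, edgeR) whichever library was left out, and MTOR and RICTOR did not pass. E2F2, E2F8 and RBL1, called higher, lost their calls when certain single libraries were left out. Of 20 S phase replication genes 17 were higher (85.0%) and 0 lower, and FEN1, PCNA and CDC45 lost their calls in the same way. The summed levels of the 20 genes were 484 to 644 TPM in WT and 861 to 938 in MLST8-KO. The summed levels of the S phase genes and of the squamous markers were thus higher in every MLST8-KO library than in any WT library, as RRM1, RRM2, TYMS and TK1 were. Their part in the differences of these 4 enzymes was not tested. RRM1, RRM2, TYMS, TK1, SAMHD1 and PFAS passed also without MLST8-KO replicate 1, the library with liver markers.

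**Figure D5:**
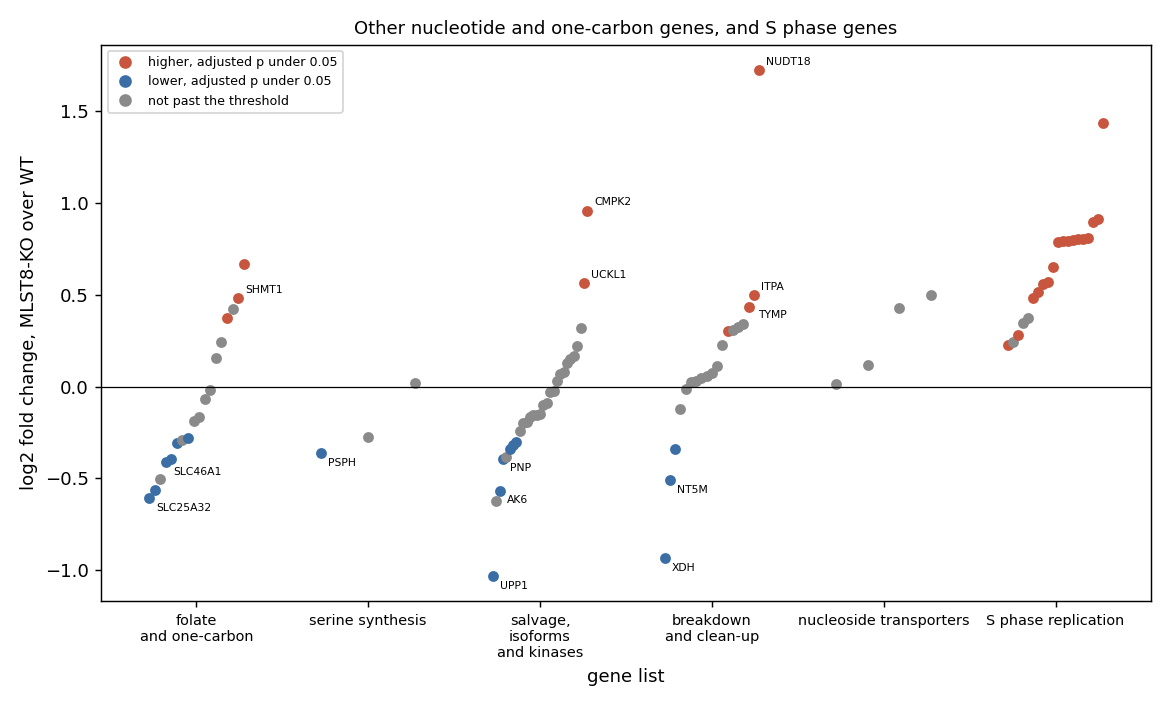
Log2 fold changes (MLST8-KO against WT, y axis) of the other nucleotide and one-carbon lists and of the S phase list (x axis), 1 point per gene tested, with the genes past the threshold colored and some of them named. All 20 S phase genes lie above 0, while the folate and salvage lists hold more genes past the threshold below 0 than above.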

How the data were processed

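RNA from 3 WT and 3 MLST8-KO samples of HCC2814 cells, grouped by their labels, was sequenced as polyA libraries. The authors filtered the reads, aligned them with HISAT to GRCh38.p12 and assigned them to reference genes with Bowtie2. The labels and the study's methods name different RNA kits, and versions and strand setting are not given in the sources used here. The authors deposited estimated counts, which are not normalized, together with TPM and FPKM, which are scaled by transcript length and library total (FPKM was not used). A table of their DESeq2 comparison, with fold changes and p-values, was not used. Of the symbols, 25 turned into dates were restored through their gene identifiers.

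Estimated counts, 12.4% of them not whole, were rounded and tested in R 4.3.3 by the quasi-likelihood method of edgeR 4.0.16, after filterByExpr and TMM scaling and without a block, with Benjamini-Hochberg adjustment over 12951 genes and a threshold of 0.05. The p-values measure the spread between these samples. On simulated counts for 12951 genes with 200 changed by a log2 fold change of 1, 85.5% of the changed genes were recovered with the right sign, and 8.56% of the calls were unchanged genes. Smaller changes, such as those of ADSL, ADSS, CAD, MTHFD1 and IMPDH2, and a larger share of changed genes were not simulated. Pair ratios were tested on log2(TPM + 0.1) by exact permutation. The alternatives tried were a block by replicate number, upper quartile scaling, size factors of DESeq2, a minimum of 10 counts in all samples, no filter, the test of DESeq2 1.42.0, and limma 3.58.1 on log2(TPM + 1) and log2(TPM + 0.1). Each sample was also left out once.

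Every enzyme is named. Values by library are given for those past the threshold, for pair members, for PPAT and, added after its values were seen, for PAICS. From each other list the 5 genes past the threshold with the largest log2 fold changes at most are named, and MLST8, ATF4, MYC and E2F1. Some items are not reported here. RRM2B is named for its ratio, and TLDC2, ZBTB25, SON, TMCO1, ZNF771 and MOB1B for their exon overlap. ENOSF1, NME1-NME2, PTPRC, CDH5, NKX2-1, NAPSA, CD68, PECAM1, MAX, SLC29A1 and SLC29A3, and the promoters printed were chosen after values were seen. So were RPTOR, MTOR, RICTOR, E2F2, E2F8, RBL1, FEN1, PCNA and CDC45. The enzymes and lists were chosen with earlier results of these data known. Gene positions are from the GENCODE annotation of GRCh38 and promoters from RefSeq (GRCh38.p14). Figures were drawn with matplotlib 3.10.9.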

Additional observations from a re-analysis of the deposited data

How the results depend on the processing

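RRM1, RRM2, TYMS, TK1, SAMHD1 and PFAS kept their direction and their side of the threshold under every alternative run. ADSL, ADSS, MTHFD1, CAD and IMPDH2 each lost their call without some single libraries. With another scaling of edgeR or limma on TPM only IMPDH2 of these 5 lost it, and CAD lost it with no filter and with DESeq2. Over all genes the lower calls fell from 2030 to 1134 with limma on log2(TPM + 1) and to 1132 with log2(TPM + 0.1), where 17 of the 33 enzymes were higher and 0 lower, against 10 and 1. Upper quartile scaling also left 0 enzymes lower. Among the other pathway genes, against 9 higher and 16 lower, 14 were higher with upper quartile scaling, and 16 were higher and 9 lower with both limma fits. These scalings place the median of all genes above that of TMM (0.06 with upper quartile scaling, 0.09 and 0.10 with limma). DESeq2 called 10 enzymes higher and 1 lower, with UCK2 in place of CAD.

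Leaving out 1 library gave 971 to 2692 higher and 850 to 2651 lower genes, 6 to 14 enzymes higher and 0 to 1 lower (CTPS1 in place of IMPDH2 without WT replicate 3), and 6 to 13 other pathway genes higher and 6 to 18 lower. The smallest counts came without WT replicate 2 or MLST8-KO replicate 1 or 2. Values near 0 changed sign: PRPS2 ranged from -0.0032 to 0.15, DHODH from -0.034 to 0.13, UMPS from -0.037 to 0.033, DCTPP1 from -0.022 to 0.058 and the PRPS1 to PRPS2 ratio from -0.10 to 0.11. UMPS was also -0.0010 with DESeq2 size factors, -0.00095 with no filter and -0.0011 with DESeq2. The causes were not tested.

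With the replicate number as a block, 2261 genes were higher and 2157 lower, and 13 enzymes were higher and 1 lower, with CTPS2, DCK and UCK2 added. Deviations of same-numbered samples correlated at 0.105, 0.0565 and 0.140, and those of differently numbered samples at -0.117 to 0.0203. Each MLST8-KO sample thus correlated best with the WT sample of its own number. Whether a number stands for a shared experiment was not tested, and the main fit did not use it. Groups of 3 against 3 limit each exact test to p = 0.1, and counts of 106 or more per library put no enzyme at the detection limit.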
